A study of Mus musculus with 3 samples.

Results

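Signalling through heterotrimeric G proteins and cyclic nucleotides was described in the neural retina of young wild-type mice, outside the light-detection cascade itself. A receptor on the cell surface activates a G protein made of an alpha, a beta and a gamma subunit, and RGS proteins speed the return of the alpha subunit to rest. Alpha subunits raise or lower adenylyl cyclase, which makes cAMP, and guanylyl cyclases make cGMP. Phosphodiesterases break both messengers down, and the kinases PKA and PKG carry the signal on. In the retina this machinery serves bipolar cell responses to glutamate, dopamine signalling and growth of young neurons, as well as phototransduction.

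The members are the probe sets whose platform gene symbol begins with Gna, Gnb and a digit, Gng, Rgs and a digit, Adcy, Pde and a digit, Gucy, Prka or Prkg. The genes Gnat1, Gnat2, Gnb1, Gngt2, Pde6a, Pde6b, Pde6g, Gucy2e and Rgs9, which act in phototransduction, were left out. This gave 90 of 12422 non-control probe sets, for 63 of 8251 named genes. A probe set is a group of short array probes against a transcript, and 20 of the 63 genes had more than 1. A set shared by Gng5 and its pseudogene was not a member, because it carried several symbols. The symbol rule also took in genes with other roles: Prkab1 and Prkag1 encode subunits of the AMP-activated kinase, Pde4dip encodes the scaffold protein myomegalin, Adcyap1 and Adcyap1r1 encode the neuropeptide PACAP and its receptor, and Gnasas1 is an antisense transcript of the Gnas locus.

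RNA of 3 pools was hybridised to U74Av2 arrays. Each pool held neural retinas of 3 to 4 wild-type mice on a mixed 129/SvEv and C57BL/6 background, taken on postnatal day 10 between 1 and 2 pm. The animals were littermates of Rp1-/- mice, whose arrays were not analysed here. The titles of pools 2 and 3 contain the word rp1 and that of pool 1 does not, while the descriptions give the same wild-type status for all, which was followed. With 1 group there is no comparison between conditions and no test. The pool numbers are names only, the spread covers differences between pools and between arrays together, and 3 arrays limit its precision.

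Signals are in deposited array units. A signal was called above background when it exceeded a background limit, set for each array at the 90th percentile of 94 probe sets whose genes belong to other tissues. The limits were 404.0, 508.8 and 388.5 for pools 1, 2 and 3. A signal under the limit is not evidence of absence. Probe sets differ in how strongly they bind, so no gene's signal is set against another's. In tissue samples like these, fewer cells of a type and less RNA per cell cannot be told apart. Of the marker lists, all 6 measured rod genes were above background on every array, 3 of 4 cone genes were, and none of 5 pigment epithelium genes was, while 4 of 7 lens genes were. The summed lens signal was 97913, 17230 and 240062 in pools 1, 2 and 3, so pool 2 was low and pool 3 high in transcripts of a tissue next to the retina.

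Transcripts of this signalling machinery were found at about the rate of the array as a whole. Of the 90 member probe sets, 27 were above background in all 3 pools, against 28.3% of all probe sets, and 53 were above it in none, against 58.3%. By gene, 23 of 63 had at least 1 probe set above background in every pool, 30 had none in any pool, and 10 lay between. Over all genes, 34.8% had their brightest probe set above background in every pool, near the members' share. By class, 4 of 5 PKA genes and 3 of 4 beta subunit genes were above background in every pool, as were 2 of 7 adenylyl cyclases and 2 of 6 gamma subunits. None of the Pde4, Pde7 and Pde8 genes, the PACAP genes or the PKG gene was above it in every pool. These counts describe small groups and depend on which transcripts the array carries.

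**Figure D1:**
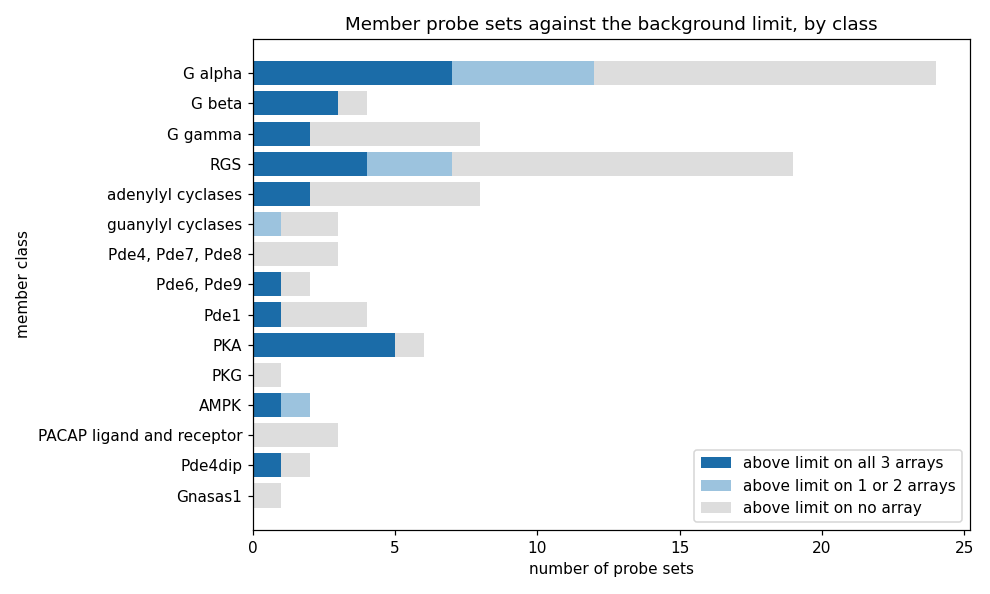
Member probe sets in each class (rows), counted on the horizontal axis and split by the number of arrays on which the signal exceeded the background limit. PKA has 5 of 6 probe sets above the limit on all 3 arrays, and the RGS class has 12 of 19 above it on none.

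Of 12 alpha subunit genes, 4 were above background in every pool, namely Gnas, Gnao1, Gnai2 and Gnai3. Gnas encodes the alpha subunit that stimulates adenylyl cyclase. One of its probe sets read 19541, 15336 and 21108 in pools 1, 2 and 3. Its range between pools was 1.38-fold, with the lowest signal in pool 2. The other 2 Gnas probe sets were above background in no pool, at 244, 155 and 308 and at 92.7, 33.3 and 60.0 in pools 1, 2 and 3. Gnas is a locus with several start sites and overlapping transcripts, and the files do not say which of them each probe set reads.

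Gnao1, the alpha subunit that couples the glutamate receptor of ON bipolar cells to its channel and is common in neurons at large, has 5 probe sets. One set read 3887, 6912 and 6382 in pools 1, 2 and 3, lowest in pool 1. Another read 562, 605 and 753 in pools 1, 2 and 3, also above background throughout and lowest in pool 1. The other 3 were above background in no pool, reading 352, 329 and 310.3, then 199, 107 and 108, then 34.4, 36.4 and 51.5 in pools 1, 2 and 3. Detection of Gnao1 therefore rested on which set was read.

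Gnai2 encodes an alpha subunit that inhibits adenylyl cyclase, and all 3 of its probe sets were above background in every pool. One set, whose name carries the suffix for possible matches to related transcripts, read 8536, 7972 and 9854 in pools 1, 2 and 3. Another read 2245, 2443 and 2482 in pools 1, 2 and 3. Both were highest in pool 3 and varied by at most 1.24-fold between pools. The last set read 569, 1229 and 954 in pools 1, 2 and 3, a range of 2.16-fold with pool 1 lowest. Gnai3, a close relative with the same function, read 2794, 1967 and 1274 in pools 1, 2 and 3, so that it was highest in pool 1 and lowest in pool 3, a 2.19-fold range. Gnai1 reached background in pool 3 only, where 1 of its 2 sets read 421, against 333 in pool 1 and 387 in pool 2.

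The remaining alpha subunits passed the background limit in some pools or in none. Gnaz, an alpha subunit related to the inhibitory ones and expressed in neurons, read 412, 378 and 1008 in pools 1, 2 and 3. Only pools 1 and 3 exceeded background, which puts pool 3 at least 1.98-fold above pool 2. Gna12 and Gna13 encode the alpha subunits of a family of their own. One Gna12 set read 685, 462 and 438 in pools 1, 2 and 3, not above background in pool 2, and the other was above it in no pool. One Gna13 set read 719.8, 451 and 348 in pools 1, 2 and 3, and only pool 1 exceeded background, at least 1.85-fold above pool 3. Of the family that activates phospholipase C, one Gna11 set exceeded the limit in pool 3 alone, at 408, and Gnaq, Gna14 and Gna15 exceeded it in no pool, with signals between 5.9 and 278.

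Of the beta subunits, Gnb2, Gnb3 and Gnb5 were above background in every pool. Gnb2, a widely expressed beta subunit, read 5220.5, 4787 and 5623 in pools 1, 2 and 3, a 1.17-fold range. Gnb3, found in cones and ON bipolar cells, read 5092, 5047 and 6703 in pools 1, 2 and 3. Pools 1 and 2 were close together and pool 3 was higher, a 1.33-fold range. Gnb5, a divergent beta subunit that binds RGS proteins of the R7 family, read 893, 831 and 1702 in pools 1, 2 and 3. Here too pools 1 and 2 lay together and pool 3 stood apart, 2.05-fold over pool 2. Gnb4 was above background in no pool, at 26.4, 124 and 266 in pools 1, 2 and 3.

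Of the gamma subunits, which anchor the beta partner in the membrane, Gng3 and Gng10 were above background in every pool. Gng3, a gamma subunit typical of neurons, read 4149, 3450.2 and 6041 in pools 1, 2 and 3, and pool 3 exceeded pool 2 by 1.75-fold. Gng10 read 489.9, 541 and 553 in pools 1, 2 and 3 and varied by 1.13-fold. The probe sets of Gng2, Gng4, Gng11 and Gng12 were above background in no pool, at 9.0 to 384.

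The R7 family of RGS proteins, partners of Gnb5, was measured through Rgs6, Rgs7 and Rgs11. In mouse, Rgs7 and Rgs11 speed the light response of ON bipolar cells by acting on Gnao1. Rgs7 read 478, 519 and 521 in pools 1, 2 and 3, above the limit in each pool but closest to it in pool 2, with a range of 1.09-fold. One Rgs11 set read 403, 504 and 685 in pools 1, 2 and 3. It was above background in pool 3 only, and in pools 1 and 2 it lay within 5 units of the limit, so the call in those pools could turn on a small change of the limit. The other Rgs11 set and Rgs6 were above background in no pool.

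Of the remaining RGS genes, Rgs3, Rgs8 and Rgs16 were above background in every pool. They speed GTP hydrolysis on inhibitory alpha subunits. Rgs16 read 851, 1148 and 588 in pools 1, 2 and 3 on one set, highest in pool 2 and lowest in pool 3, a 1.95-fold range. Its second set was above background in no pool, at 290.3, 223 and 239. Rgs3 read 1229.7, 1097 and 769 in pools 1, 2 and 3 and was also lowest in pool 3. Rgs8 read 947, 894 and 1102 in pools 1, 2 and 3 on a set whose suffix marks possible matches to related transcripts. Rgs14 was above background in pool 1 alone, at 637, 456 and 375 in pools 1, 2 and 3. One of 3 Rgs19 sets was above background in pool 2 alone, at 276, 535 and 279. Rgs2, Rgs4, Rgs5 and Rgs10 were above background in no pool. Rgs5, a gene of pericytes, read 280.4, 275 and 313 on one set and 164, 142 and 154 on the other, with a range of at most 1.15-fold.

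Of 7 adenylyl cyclase genes, Adcy2 and Adcy6 were above background in every pool. Adcy2, which G protein beta-gamma subunits activate, read 1388, 608 and 1457 in pools 1, 2 and 3. Pools 1 and 3 were close together and pool 2 was low, a 2.40-fold range. Adcy6, which calcium inhibits, read 1323, 1393 and 1012 in pools 1, 2 and 3, a 1.38-fold range with pool 3 lowest. Adcy3, Adcy4, Adcy7, Adcy8 and Adcy9 were above background in no pool, at 86.0 to 363. Adcyap1, which encodes PACAP, read 254, 278 and 181, and both sets for its receptor Adcyap1r1 were likewise not above background in any pool.

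Among the guanylyl cyclases, Gucy1b1, the beta subunit of the soluble enzyme that nitric oxide activates, read 393, 680.0 and 630.3 in pools 1, 2 and 3. It was above background in pools 2 and 3. Both sets of Gucy2c, a receptor cyclase of the intestine, were above background in no pool, and neither was Prkg2, a cGMP-dependent kinase.

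Of the phosphodiesterase genes, Pde6d and Pde1b were above background in every pool. Pde6d encodes a prenyl-binding protein that carries lipid-modified proteins to photoreceptor outer segments, and is named for its copurification with the rod enzyme. It read 2006, 1319 and 2204 in pools 1, 2 and 3, with pool 2 lowest and a 1.67-fold range. Pde1b, which calcium and calmodulin activate and which breaks down cAMP and cGMP, read 925, 930.5 and 1098 in pools 1, 2 and 3. Its range was 1.19-fold. Pde1a, Pde1c, Pde4b, Pde7a, Pde8a and Pde9a were above background in no pool. Their sets had signals from 15.5 to 351. The set of Pde1c had a nominal range of 13.31-fold, all of it under the limit.

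PKA was mostly above background. The SD of log2 signal over its 6 probe sets, 5 of them with a mean above 433.8, the mean of the limits, had a median of 0.20. Over all probe sets with a mean above 433.8 the median was 0.26. Prkar1a, at 0.25, lay near that value, and 1 Prkar1b set reached 0.80. Prkaca, a catalytic subunit, read 1786, 1796 and 1688 in pools 1, 2 and 3, a mean of 1757 ± 59.6 (SD, n = 3). Its range was 1.06-fold as deposited, and 1.10-fold with median scaling, where Rgs7, 1 Gnai2 set and Gng10 varied less. Prkacb, the second catalytic subunit, read 1969, 2405 and 2387 in pools 1, 2 and 3. The regulatory subunit Prkar1a, which holds the catalytic subunits inactive until cAMP binds, read 5435, 6187 and 7679 in pools 1, 2 and 3, highest in pool 3 with a 1.41-fold range. Prkar2a was above background in no pool, at 288, 379.8 and 290.5.

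Prkar1b, the regulatory subunit typical of neurons, differed between its 2 sets. One read 1712, 632 and 1585 in pools 1, 2 and 3, a 2.71-fold range with pool 2 far below the others. The other read 972, 1103 and 882 in pools 1, 2 and 3, with pool 2 the highest. The low signal of pool 2 on the first set was thus not seen on the second.

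The remaining members stood outside the pathway. Prkab1, a beta subunit of the AMP-activated kinase, read 1968, 1940.3 and 1649 in pools 1, 2 and 3, a 1.19-fold range. Prkag1, a gamma subunit of the same kinase, read 403.5, 227 and 409 in pools 1, 2 and 3, which is above background in pool 3 alone and just under the limit of 404.0 in pool 1. One Pde4dip set read 617, 587 and 739.5 in pools 1, 2 and 3, above background in every pool, and the other read 6.3, 45.4 and 5.6, above it in none. Gnasas1 was above background in no pool, at 27.8, 76.2 and 56.3.

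**Figure D2:**
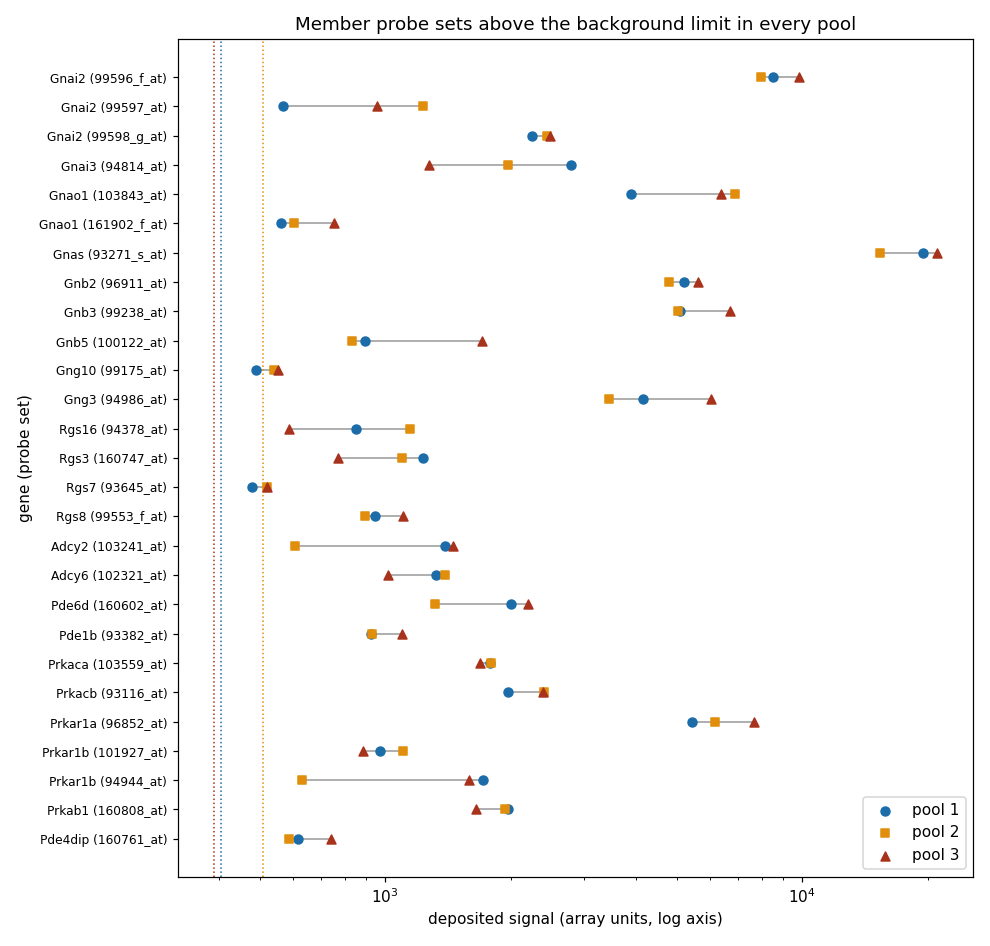
Deposited signal (log axis) of the 27 member probe sets above background in every pool, with 1 symbol per pool joined by a grey line from lowest to highest. Dotted lines mark the background limits of 404.0 (pool 1), 508.8 (pool 2) and 388.5 (pool 3). Gnb5 and Gng3 show pool 3 apart on the right, Adcy2 and 1 Prkar1b set show pool 2 apart on the left, and Gnai3 runs from pool 1 on the right to pool 3 on the left.

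The spread between pools was close to that of the array. The median SD of log2 signal over the 3 pools was 0.40 for the 90 members and 0.44 for all probe sets. Among those with a mean above the mean limit of 433.8, it was 0.25 for 33 members and 0.26 for 4311 probe sets. The corresponding medians of the range were 1.41-fold and 1.40-fold. Across the members, Pearson's r of log2 signal was 0.92 for pool 1 with pool 2, 0.91 for pool 1 with pool 3, and 0.90 for pool 2 with pool 3. This r runs across genes, and genes are no independent replicates.

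A range over 2-fold was found in 7 of these 33 members, against 10.8% of the 4311 probe sets with a mean above the mean limit. The 7 were Gnaz, Gna13, Gnai3, 1 set of Gnai2, Gnb5, Adcy2 and 1 set of Prkar1b. For Gna13 and Gnaz the lowest reading was not above background, and the bounds given above, at least 1.85-fold and at least 1.98-fold, lie under the threshold. Of the 27 members above background in every pool, 5 were over 2-fold, against 6.64% of all such probe sets. Gnb5, at 2.05-fold, lay just inside the threshold, and Rgs16, at 1.95-fold, just outside it. With 2 pools the range is smaller by construction, so a lower count then does not show that the count rests on single pools. Leaving out pool 1 gave 4 of 31, against 6.24% of all probe sets with a mean above the mean limit. Leaving out pool 2 gave 3 of 34, against 4.59%, and leaving out pool 3 gave 3 of 31, against 3.91%. Adcy2, Gnb5, the Prkar1b set and, by its readings only, Gnaz were over 2-fold without pool 1. Without pool 2, Gnai3, Gnaz and, by its readings only, Gna13 were, and without pool 3, Adcy2, the Gnai2 set and the Prkar1b set did. The count was 4 of 24 when the probe sets of each gene were averaged, against 10.1% of all genes so treated with a mean above the limit. With the limit at the 75th percentile it was 13 of 58, against 19% of all probe sets with a mean above it. The members' share then lay near that of the array. Of the 7 members over 2-fold as deposited, Adcy2, Gnaz, Gnb5 and the Prkar1b set were lowest in pool 2. So were 27.2% of all probe sets, and 1142 of the 3510 probe sets above background in every pool. Lowest there too were 7 of 10 lens, 3 of 3 red blood cell, 4 of 5 ganglion cell and 4 of 8 pigment epithelium marker sets. The counts were 2 of 7 for rods, 2 of 9 for Müller glia, 2 of 6 for amacrine cells and 2 of 6 for endothelial and mural cells. It was 1 of 4 for horizontal cells, and no cone, bipolar cell or microglia and leukocyte set was lowest there. The red blood cell sets summed to 21740.1, 4512 and 14756 in pools 1, 2 and 3. The part of these tissues and cells in the ranges was not tested.

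**Figure D3:**
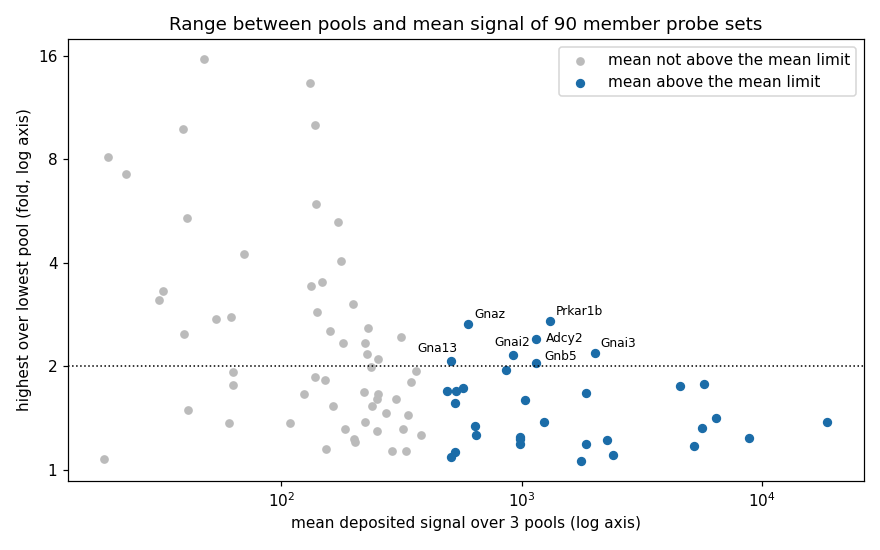
Highest over lowest pool (vertical, log axis, in fold) against mean signal over the 3 pools (horizontal, log axis) for the 90 member probe sets. Blue points have a mean above 433.8, and the 7 of them over the dotted 2-fold line are named; grey points below that mean reach up to 15.7-fold.

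The members leaned towards pool 3. Of 90 probe sets, 47 were highest in pool 3, against 33.1% of all probe sets, and 37 were lowest in pool 2, against 27.2%. Of the 27 above background in every pool, 16 were highest in pool 3, against 30.8% of all such sets. The median deviation of log2 signal from a probe set's own mean was -0.04 in pool 1, -0.06 in pool 2 and 0.17 in pool 3 for the members. Over all probe sets the same medians were -0.05, 0.08 and -0.008. All 4 beta subunit sets and all 4 Pde1 sets were highest in pool 3. Of these, 1 beta subunit set, Gnb4, and 3 Pde1 sets were above background in no pool, so their order describes readings under the limit. Also highest in pool 3 were 13 of 24 alpha subunit sets, 5 of 8 gamma subunit sets and 9 of 19 RGS sets, but only 1 of 6 PKA sets. Gnai3, Gna13, Rgs3, Rgs14, Rgs16 and Adcy6 were among those lowest there. The excess was not tested and is a description of 3 arrays in which sets of the same gene are not independent.

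Other features of the arrays moved with pool 3. Rod markers were highest there in 6 of 7 probe sets, with summed signals of 37819, 41346 and 69653 in pools 1, 2 and 3. Lens markers were highest there in 9 of 10, with the sums given above, and each of the 7 measured genes passed the limit on at least 1 array. Müller glia markers were highest there in 7 of 9, with sums of 11528, 11979 and 18194, and ganglion cell markers in 5 of 5, with sums of 4277, 3508 and 5823. Endothelial and mural markers were highest there in 5 of 6, with sums of 1673, 1661 and 2884, although 3 of the 6 genes were above background on no array. Cone markers were highest there in 1 of 4 and summed to 3217, 4426 and 3733. The count was 2 of 4 for bipolar cells, with sums of 2393, 3138 and 4521.5, of which 1 Pcp2 set gave 1425, 2062 and 3515. It was 2 of 6 for amacrine cells, with sums of 8800, 7525 and 10979. For horizontal cells it was 1 of 4, with sums of 1525.5, 1313 and 1659. Pigment epithelium had 4 of 8, with sums of 994, 1341 and 1444, and microglia and leukocytes 2 of 9, with sums of 1241, 1504 and 1124. No red blood cell set was highest there. Control probe sets at the 3′ and 5′ ends of Actb gave ratios of 1.20, 1.44 and 1.69, and those of Gapdh 0.95, 0.89 and 0.93. The part of these in the members' lean towards pool 3 was not tested.

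**Figure D4:**
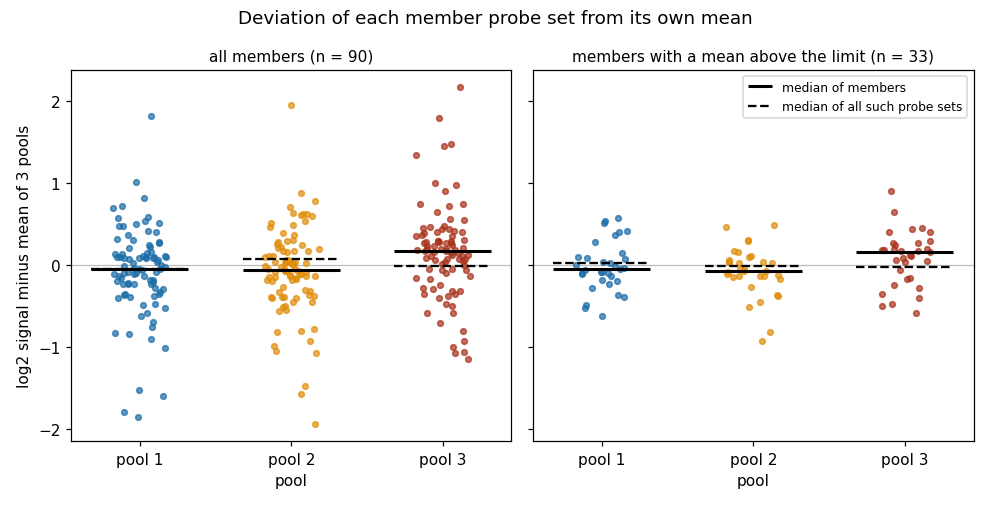
Deviation of log2 signal from the probe set's own mean over the 3 pools (vertical) in each pool, for all 90 members (left) and for the 33 with a mean above the limit (right). Solid bars are the members' medians and dashed bars those of all comparable probe sets; in pool 3 the members' medians are 0.17 and 0.16 and the others -0.008 and -0.02.

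Probe sets of the same gene could differ in whether they passed the limit. Of the 20 genes with several sets, 4 (Gnao1, Gnas, Pde4dip and Rgs16) had 1 above background in every pool and another in none. Another 2, Gnai2 and Prkar1b, had every set above background in every pool. In 6 genes 2 sets had their highest and lowest pools exchanged, namely Adcy9, Gnao1, Gng12, Pde4dip, Rgs11 and Rgs19. In each of them at least 1 of these sets was above background in no pool, so the exchange describes readings and does not show that the sets disagree. The Adcy9 sets, for a widely expressed cyclase, read 183, 362 and 140.1, against 315, 224 and 362 on the other, so that pool 2 was high on one and low on the other. The Gng12 sets read 356, 266 and 384, against 177, 217 and 85.5, with pool 3 the highest on one and the lowest on the other. In both genes every reading was under the limit. The Rgs11 set not shown above read 19.2, 18.2 and 17.8, close to level across pools. The other Rgs19 sets read 119.5, 61.7 and 28.2 and 190.0, 251 and 315, and pool 1 was highest on one and lowest on the other. Only Pde1a had the same highest and lowest pool in every set, and its sets were above background in no pool. In 8 of the 20 genes every set was above background in no pool. The same counts were not made for the other genes of the array, so they do not show whether the members are unusual.

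**Figure D5:**
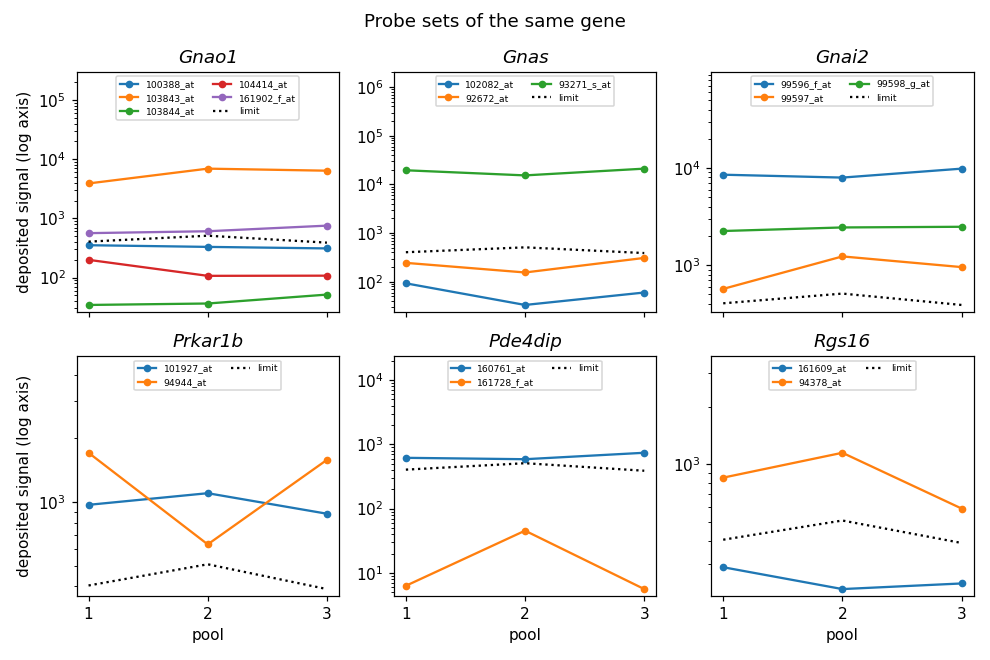
Deposited signal (vertical, log axis) in pools 1, 2 and 3 for each probe set of 6 genes with the background limit as a dotted line. Lines only join the readings of 1 set, since the pools have no order; the 2 Prkar1b sets cross, with pool 2 at 632 on one and 1103 on the other.

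Promoter windows were inspected for members with a range over 2-fold and for Prkaca, whose range was the smallest of the members with a mean above the limit. Prkar1a was added because a search of all member windows found the full cAMP response element in its windows only. RefSeq windows on GRCm38.p6, from 250 bases before to 50 after a gene's start, were found for 49 of the 63 genes, 86 windows in all. They are shown for Adcy2 and for Prkar1b, whose 1 set over 2-fold was, like Adcy2, lowest in pool 2, for Gnai3 and Gna13, both highest in pool 1 and lowest in pool 3, for Gnb5, highest in pool 3, for Prkaca, a member that varied little, and for Prkar1a. Where a gene had several windows the most upstream one was taken, except for Prkar1a, where it is the first with a full cAMP response element. Sequences run 5′ to 3′ on the gene's strand. Capitals mark the short cAMP response element (TGACG or CGTCA), the GC box (GGGCGG or CCGCCC) and the core of the site for Crx, a photoreceptor transcription factor (TAATCC or GGATTA).
Adcy2, chr13:68999492-68999791, minus strand: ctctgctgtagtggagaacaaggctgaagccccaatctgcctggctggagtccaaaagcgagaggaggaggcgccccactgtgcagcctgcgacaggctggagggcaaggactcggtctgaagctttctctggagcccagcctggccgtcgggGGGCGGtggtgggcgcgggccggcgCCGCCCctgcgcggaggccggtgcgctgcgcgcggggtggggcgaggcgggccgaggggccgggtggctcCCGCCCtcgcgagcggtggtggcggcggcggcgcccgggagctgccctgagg
Prkar1b, chr5:139150654-139150953, minus strand: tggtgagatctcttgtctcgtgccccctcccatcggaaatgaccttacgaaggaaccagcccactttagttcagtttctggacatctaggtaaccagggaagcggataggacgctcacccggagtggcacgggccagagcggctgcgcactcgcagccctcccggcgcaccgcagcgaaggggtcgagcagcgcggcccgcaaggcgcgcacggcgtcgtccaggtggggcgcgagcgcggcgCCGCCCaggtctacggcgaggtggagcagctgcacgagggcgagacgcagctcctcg
Gnai3, chr3:108146103-108146402, minus strand: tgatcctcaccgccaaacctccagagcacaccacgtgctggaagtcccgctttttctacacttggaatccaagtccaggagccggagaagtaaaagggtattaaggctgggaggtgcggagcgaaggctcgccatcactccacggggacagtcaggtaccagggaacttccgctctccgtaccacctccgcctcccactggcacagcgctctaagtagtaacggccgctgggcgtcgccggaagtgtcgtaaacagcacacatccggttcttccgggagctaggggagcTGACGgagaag
Gna13, chr11:109362544-109362843, plus strand: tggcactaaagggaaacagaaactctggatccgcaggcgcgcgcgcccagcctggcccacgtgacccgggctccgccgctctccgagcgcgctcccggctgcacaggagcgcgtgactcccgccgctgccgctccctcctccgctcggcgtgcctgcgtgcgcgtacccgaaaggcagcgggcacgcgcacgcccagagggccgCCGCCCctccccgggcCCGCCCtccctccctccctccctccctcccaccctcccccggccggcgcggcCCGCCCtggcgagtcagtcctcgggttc
Gnb5, chr9:75306038-75306337, plus strand: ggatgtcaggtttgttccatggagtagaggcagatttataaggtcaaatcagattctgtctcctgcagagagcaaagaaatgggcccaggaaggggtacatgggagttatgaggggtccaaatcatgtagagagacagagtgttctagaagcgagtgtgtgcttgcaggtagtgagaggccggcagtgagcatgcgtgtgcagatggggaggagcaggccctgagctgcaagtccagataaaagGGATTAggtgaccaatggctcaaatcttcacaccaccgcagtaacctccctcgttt
Prkaca, chr8:83972728-83973027, plus strand: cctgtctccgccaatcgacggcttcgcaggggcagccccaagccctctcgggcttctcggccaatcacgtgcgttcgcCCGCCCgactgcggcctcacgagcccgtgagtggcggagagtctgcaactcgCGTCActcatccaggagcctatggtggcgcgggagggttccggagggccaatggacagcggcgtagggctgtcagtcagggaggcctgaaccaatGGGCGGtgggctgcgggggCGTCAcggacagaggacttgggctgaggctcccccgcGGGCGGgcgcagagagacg
Prkar1a, chr11:109650612-109650911, plus strand: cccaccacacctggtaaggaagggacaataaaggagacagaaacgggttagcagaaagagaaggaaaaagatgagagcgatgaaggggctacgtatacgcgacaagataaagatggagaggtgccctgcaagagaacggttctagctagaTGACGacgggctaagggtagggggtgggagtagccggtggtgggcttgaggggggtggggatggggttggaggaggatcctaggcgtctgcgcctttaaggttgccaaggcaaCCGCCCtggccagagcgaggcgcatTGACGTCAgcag

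The GC box, present in 35.7% of all windows, was found in the windows shown for Adcy2, Prkar1b, Gna13, Prkaca and Prkar1a. Those of Gnai3 and Gna13 had none of the marked motifs in common. Whether any motif goes with a pattern over the pools was not tested. Gnai2, Gnaz and Gnb3 had no entry in the table. Adcy2 had 3 GC boxes and Prkar1b 1, and neither of these windows held a short cAMP response element, although at least 1 other of the 5 Prkar1b windows did. Gna13 had 3 GC boxes and Gnai3 had none but 1 short element, after the start. Gnb5 held the single Crx core of the 7 windows. Prkaca had 2 short elements, 120 and 6 bases before the start, and 3 GC boxes. Prkar1a was the only member gene with the full element TGACGTCA, a palindrome that contains the short one on both strands, in 2 of its 6 windows.

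Over all 86 member windows, searched on both strands, the full element was present in 2.33%, against 1.79% of all 32851 windows, and the short element in 29.1%, against 20.8%. The GC box was present in 41.9%, against 35.7%, and the Crx core in 4.65%, against 7.06%. The median GC content was 58.3% in the member windows and 52.7% in all windows, and windows of the same gene can overlap. A match of letters is a description, and no binding was measured.

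Neighbouring genes of the same pathways, which are no members, were read against the same limits. Of 49 measured genes out of 83 listed, 19 were above background in every pool and 25 in none. Over all genes, 34.8% had their brightest probe set above background in every pool, near the share of these genes. The counts for single lists below describe small groups. Among receptors, 3 of 9 were above background in every pool. Drd4, a dopamine receptor that lowers cAMP in photoreceptors, read 537, 648 and 2699.7 in pools 1, 2 and 3, a 5.03-fold range with pool 3 apart. Gabbr1, a subunit of the GABA-B receptor, read 2044, 1896 and 1919 in pools 1, 2 and 3, and Vipr2, a receptor for VIP and PACAP, read 619, 576 and 547 in pools 1, 2 and 3. Neither of these 2 varied by more than 1.13-fold.

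Partners that switch receptors off or bind G proteins were above background in every pool for 4 of 10 genes, namely Grk6, Sag, Pdc and Pcp2. Grk6, a receptor kinase, read 1050.2, 599.7 and 797 in pools 1, 2 and 3. Pcp2, a modulator of inhibitory alpha subunits in ON bipolar cells, read 1425, 2062 and 3515 in pools 1, 2 and 3 on one set, and its other set was above background in no pool. Sag, rod arrestin, read 22066, 24854 and 34554 in pools 1, 2 and 3, highest in pool 3. Pdc, phosducin, which binds beta-gamma subunits in photoreceptors, read 21088, 23619 and 21313 in pools 1, 2 and 3 on one set, a 1.12-fold range. Its other set was above background in no pool, at 228, 231 and 219.

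Of 11 PKA inhibitors and anchors, 4 were above background in every pool, namely Pkia, Pkig, Akap1 and Akap8. The inhibitor Pkia was highest in pool 2 on both sets, at 829, 1704 and 963 on one and 494, 656 and 459 on the other. The inhibitor Pkig read 1454, 1254 and 1399.7 in pools 1, 2 and 3. Akap1, which anchors PKA at mitochondria, had 2 of 3 sets above background throughout, at 1756, 1032 and 1575 and at 1051, 1101 and 1053. Akap8, a nuclear anchor, read 783, 754 and 672 in pools 1, 2 and 3 on the set above background in every pool.

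The 5 measured genes of other cyclic nucleotide effectors were all channel genes, and 3 of them were above background in every pool. Hcn2 read 1949, 1788 and 1641 in pools 1, 2 and 3, Hcn3 1159, 642 and 950.5 in pools 1, 2 and 3, and the rod channel subunit Cnga1 665, 1189 and 1440.0 in pools 1, 2 and 3. The last was lowest in pool 1, whereas Hcn3 was lowest in pool 2. Of 9 cGMP regulators, 2 were above background in every pool. Guca1a, which activates retinal guanylyl cyclase when calcium falls, read 971, 978 and 1594 in pools 1, 2 and 3. Nppa, a natriuretic peptide gene, read 470.1, 538 and 431 in pools 1, 2 and 3, above background throughout, but it is also in the list that set the limit. All 3 nitric oxide synthase genes were above background in no pool. Of 5 measured genes listed for transcription downstream of cAMP, Atf2, Atf4 and Crebbp were above background in every pool. Atf2 read 1180.3, 1068 and 954 in pools 1, 2 and 3 on one set. Atf4 read 5697, 5819.8 and 7657 and Crebbp 658, 731 and 946 in pools 1, 2 and 3. Creb1 and Crem, which PKA phosphorylates, were above background in no pool on any of their sets.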

How the data were processed

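Total RNA of 3 wild-type retina pools was measured on U74Av2 arrays. The labels do not say whether pools shared animals. The deposited table holds a linear intensity for each of 12488 probe sets, 66 of them controls. The sources used here do not state how the authors computed it. Means after trimming 2% at each end were 500.3, 500.2 and 500.3, as global scaling would give, and values were used as deposited. Medians were 234.2, 254.1 and 243.3, and no detection calls were used.

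Gene symbols came from the platform annotation, and Entrez gene numbers matched all 90 members to RefSeq with no symbol changed. Signals below 1 were set to 1 before log2. The background limit was the 90th percentile of 94 probe sets of 76 measured genes, out of 92 listed, restricted to other tissues. This list differs from one used earlier on these data. Members and lists were chosen with earlier results of these data known. By rule, per-pool values were given for members above background in every pool, those with a mean above the mean limit and a range over 2-fold, and genes whose probe sets disagreed, while other members are given by class with examples. Of the other pathway genes, those above background in every pool are named, with values for at most the first 4 of each list. Nppa is in both the limit's list and the cGMP list. Alternative limits, a floor of 100, median and quantile scaling, 1 value per gene, plain probe sets and leaving out each pool were tried. The statistics were tested on simulated data. Python 3.11.15, numpy 2.4.6, pandas 2.3.3 and scipy 1.17.1 were used.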

Additional observations from a re-analysis of the deposited data

How the results depend on the processing

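No paired analysis was possible because all samples form 1 group. The number of members above background in every pool was 27, and it was 46 of 90 with the limit at the 75th percentile, against 48.8% of all probe sets, and 22 with it at the 95th. Over the other 10 alternatives it lay between 19 and 29, and the 19 came from averaging the probe sets of 63 genes. The number of members with a range over 2-fold was 7. It became 13 of 58 with the limit at the 75th percentile, which adds dimmer members, against 19% of all probe sets with a mean above that limit. It became 4 with averaged probe sets, and 3 to 4 with 1 pool left out, where the range is smaller by construction. Median scaling left out the Gnai2 set and gave 6, all of them among the 7. The median SD of the members was 0.25 to 0.44 over 12 alternatives. The median deviation in pool 3 stayed above 0, at 0.08 to 0.20 over 11 alternatives, and was lowest without pool 2. In pool 1 it changed sign, at 0.02 with median scaling and -0.08 without pool 2, so no direction is given there. The number of members highest in pool 3 was a count chosen after seeing the data. With all 90 members and all 3 pools it was 45 to 49, against 33.1% to 33.8% of all probe sets. With 2 pools, where 1 of 2 must be highest, it was 57 without pool 1, against 44.8%, and 59 without pool 2, against 52.9%. For members with a mean above the limit, and all 3 pools, it was 18 of 33, against 32.3%. Other pathway genes above background in every pool numbered 15 to 27. Signal over background limits what can be said of the 53 dim probe sets, whose signals lay at or under 384, and of Rgs7 in pool 2 and Rgs11 in pools 1 and 2, which lie close to the limit.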
